A study of Drosophila melanogaster with 2 samples.

Results

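The bithorax complex of Drosophila melanogaster holds the Hox genes Ubx, abd-A and Abd-B, and Spps-GFP binding was examined from 20 kb outside Ubx to 20 kb outside Abd-B (chr3R:16636623-16992236, dm6, Ensembl annotation). The 3 genes were chosen by name, out of 13945 protein-coding genes on the 6 chromosome arms, and every peak summit in the region was taken from 4 deposited peak lists. The data were anti-GFP ChIP-seq of whole embryos aged 0 to 12 h from a transgenic line in which Spps carries GFP at its C-terminal end. There were 2 biological replicates of this 1 group and no other condition. The sources used here give neither the promoter that drives the fusion nor whether untagged Spps was present. Each replicate gave a list of 30000 peaks, a pooled list from both replicates held a further 30000, and a list thresholded for reproducibility (IDR, irreproducible discovery rate) held 3260, which were the 3260 strongest peaks of the pooled list. The region held 7 IDR summits, 92 pooled summits, 108 summits of replicate 1 and 91 of replicate 2.

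Ubx, abd-A and Abd-B encode homeodomain transcription factors that give segments of the posterior thorax and the abdomen their identity, and they lie along the chromosome in the order of the segments they specify. Their expression borders are set early by segmentation factors and then kept by Polycomb group repressors and trithorax group activators. Those proteins act through Polycomb response elements, short stretches of DNA in the long introns and intergenic sequence of the complex, and boundary elements separate its regulatory domains. Spps is an Sp/KLF zinc finger protein known to bind Polycomb response elements, together with factors such as Pho, GAGA factor and Combgap. The annotation used here does not mark these elements, so summits are placed by coordinates and genes. In whole embryos, a strong signal in few cells and a weak signal in many cannot be told apart.

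The 7 IDR summits fell in 4 stretches of the complex, and abd-A held none. Ubx held 1 (chr3R:16717956-16718331), in an intron 16282 bp downstream of its transcription start site (TSS). Between Ubx and abd-A there were 3, at chr3R:16771740-16771857 in an intron of lncRNA:bxd, a noncoding RNA gene of the bxd regulatory domain of Ubx, and at chr3R:16794202-16794577 and chr3R:16798847-16798944 in intergenic sequence. The 2 intergenic summits are named below by the gene with the nearest TSS. That was Glut3, 6079 bp away, for the first and lncRNA:CR45750, 1683 bp away, for the second. Between abd-A and Abd-B there was 1 (chr3R:16837795-16838170), in introns of the noncoding RNA gene lncRNA:iab8 and of MSAmiP, a micropeptide gene that overlaps it. Abd-B held 2 (chr3R:16958307-16958400 and chr3R:16969868-16970243), both in introns.

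These 7 summits and the strongest summit inside abd-A are shown because they are the sites on which the description turns. Each sequence is from RefSeq release 6 (dm6 coordinates), plus strand, 5′ to 3′, with 100 bases to either side of the summit base. Capitals mark matches on either strand to the Sp core GGGCG, the KLF box GGGTG, the Pho core GCCAT, the GAGA factor site GAGAG and the repeat GTGTGT that Combgap is known to bind. Matches may overlap one another, as the KLF box and GTGTGT did in the lncRNA:bxd window. None of the windows overlaps an annotated exon.
Ubx intron, chr3R:16718044-16718244: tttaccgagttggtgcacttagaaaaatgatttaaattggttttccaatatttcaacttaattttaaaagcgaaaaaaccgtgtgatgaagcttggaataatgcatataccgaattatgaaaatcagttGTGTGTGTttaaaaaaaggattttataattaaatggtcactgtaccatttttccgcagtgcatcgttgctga
lncRNA:bxd intron, chr3R:16771744-16771944: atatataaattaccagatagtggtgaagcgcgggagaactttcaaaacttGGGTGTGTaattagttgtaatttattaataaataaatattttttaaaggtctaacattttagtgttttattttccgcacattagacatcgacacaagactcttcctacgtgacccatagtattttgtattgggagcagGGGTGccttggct
Intergenic near Glut3, chr3R:16794290-16794490: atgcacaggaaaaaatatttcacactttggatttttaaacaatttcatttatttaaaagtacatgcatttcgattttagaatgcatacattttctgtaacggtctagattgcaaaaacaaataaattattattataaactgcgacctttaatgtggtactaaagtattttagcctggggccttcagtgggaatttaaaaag
Intergenic near lncRNA:CR45750, chr3R:16798817-16799017: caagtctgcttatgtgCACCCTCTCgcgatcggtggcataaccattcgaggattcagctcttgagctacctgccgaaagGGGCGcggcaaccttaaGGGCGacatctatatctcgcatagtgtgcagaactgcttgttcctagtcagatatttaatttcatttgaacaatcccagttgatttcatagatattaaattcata
abd-A intron (not an IDR summit), chr3R:16811802-16812002: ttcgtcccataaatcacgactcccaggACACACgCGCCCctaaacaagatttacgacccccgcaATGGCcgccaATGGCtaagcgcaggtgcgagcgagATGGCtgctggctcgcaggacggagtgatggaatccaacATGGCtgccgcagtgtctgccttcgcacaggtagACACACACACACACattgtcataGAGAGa
lncRNA:iab8 intron, chr3R:16837883-16838083: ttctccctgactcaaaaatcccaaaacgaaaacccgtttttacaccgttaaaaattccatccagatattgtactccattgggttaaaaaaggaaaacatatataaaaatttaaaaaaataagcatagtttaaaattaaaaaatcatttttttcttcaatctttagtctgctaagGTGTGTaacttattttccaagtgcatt
Abd-B intron, proximal, chr3R:16958211-16958411: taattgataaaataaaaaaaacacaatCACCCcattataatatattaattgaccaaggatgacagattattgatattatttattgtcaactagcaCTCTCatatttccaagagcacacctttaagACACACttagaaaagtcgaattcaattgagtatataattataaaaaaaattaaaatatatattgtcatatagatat
Abd-B intron, distal, chr3R:16969956-16970156: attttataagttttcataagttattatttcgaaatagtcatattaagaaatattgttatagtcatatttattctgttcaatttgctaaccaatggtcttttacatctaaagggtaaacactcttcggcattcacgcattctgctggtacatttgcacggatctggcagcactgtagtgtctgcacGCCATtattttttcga

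Marked motifs differed from window to window. The intergenic window near lncRNA:CR45750 was the single IDR window with the Sp core, which it held at 2 places, the nearer starting 4 bases left of the summit. The lncRNA:bxd window held the KLF box at 2 places, and the same box occurred once each near lncRNA:CR45750 and at the proximal Abd-B summit. The window near Glut3 held none of the 5 marked motifs. The Ubx and lncRNA:iab8 windows held GTGTGT alone of the 5, and the distal Abd-B window held the Pho core alone. Among the windows shown, that of abd-A was the richest in Pho cores, with 4, beside 1 Sp core, 1 GAGA site and 6 overlapping or separate matches to GTGTGT. It had a GC content of 56.7% against 23.4% to 44.3% in the IDR windows. It is also the only window shown from outside the IDR list. GC content ran up to 60.7% in the region's pooled windows, and the Pho core occurred in 31.2% of all pooled against 24.0% of all IDR windows. Matches per window were not counted over all peaks.

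**Figure D1:**
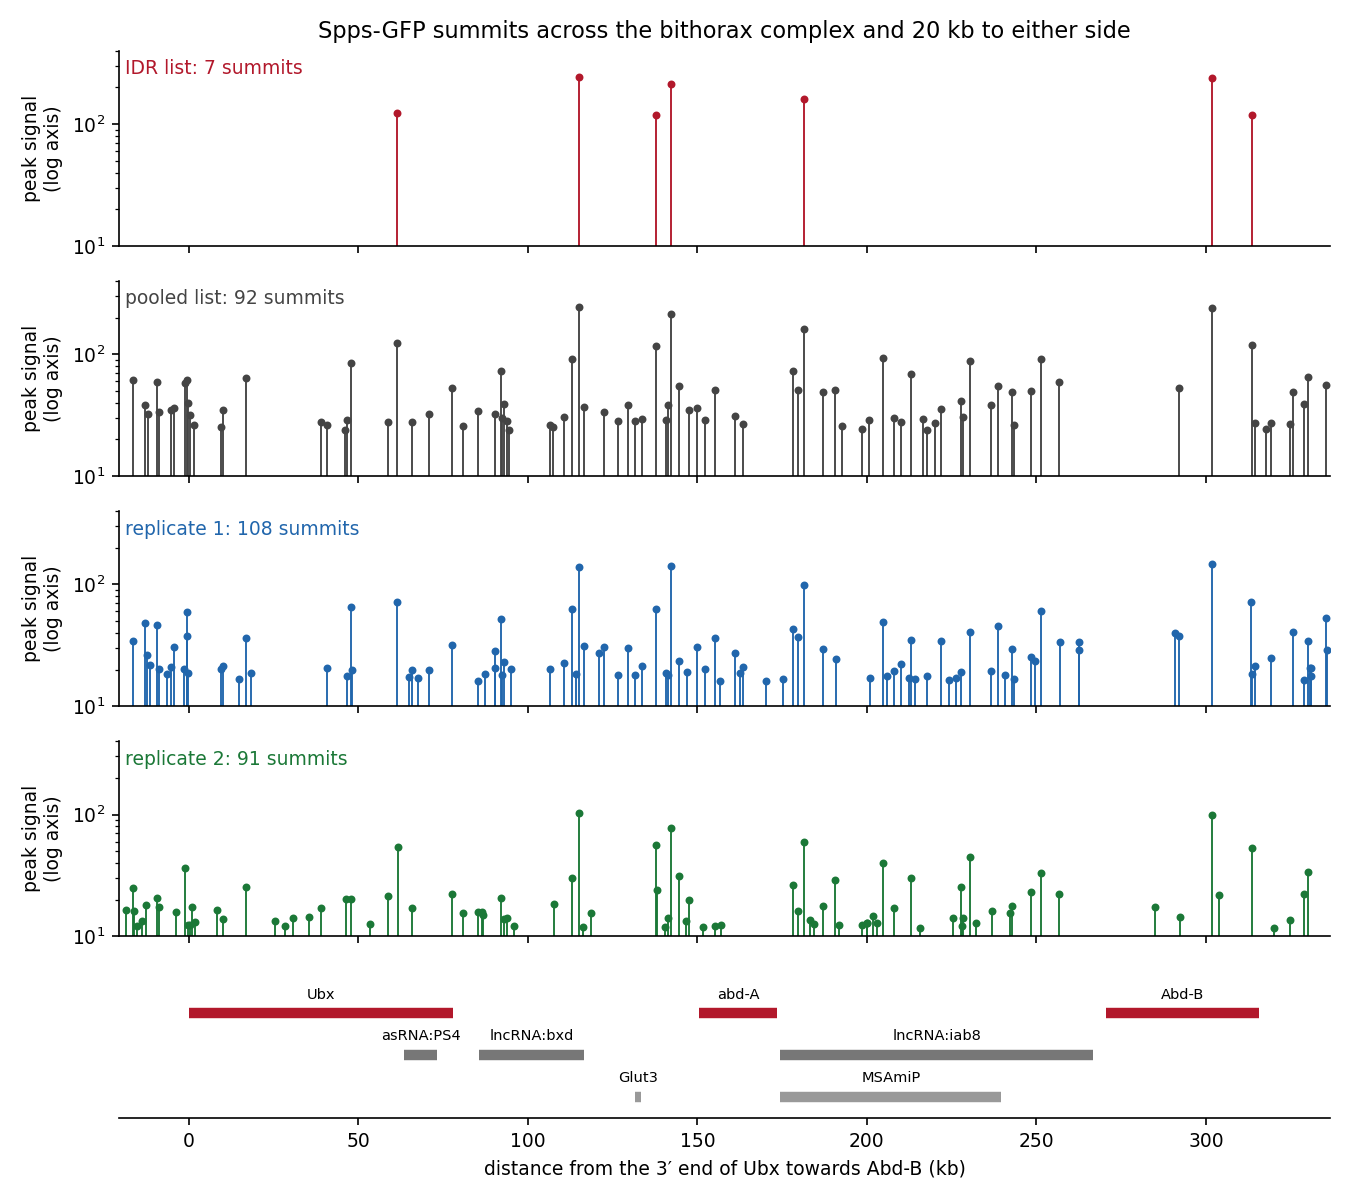
Peak signal of every Spps-GFP summit (vertical axes, log scale, in the units of each list's own caller values, which are not comparable between lists) against distance from the 3′ end of Ubx (kb), in the IDR, pooled, replicate 1 and replicate 2 lists, with genes drawn to scale below. The 7 IDR summits are the tallest in the pooled and replicate 2 lists, in replicate 1 the one near Glut3 (62.8) is lower than 2 summits outside the IDR list (65.5 and 63.2), abd-A has no tall summit in any list, and no pooled summit falls in the 35.3 kb before the summits inside Abd-B.

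The deposited signal of a peak is the value that the authors' caller gave it relative to a control, and it is used here to rank peaks within a list. The strongest summit of the region lay in lncRNA:bxd, with a pooled signal of 244 (rank 756), a replicate 1 signal of 138 (rank 868) and a replicate 2 signal of 103 (rank 655). The proximal Abd-B summit followed with 241 in the pooled list (rank 777), 148 in replicate 1 (rank 774) and 99.1 in replicate 2 (rank 708). The summit near lncRNA:CR45750, a noncoding RNA gene, had 214 in the pooled list (rank 954), 142 in replicate 1 (rank 825) and 77.0 in replicate 2 (rank 1120). These 3 summits ranked 954 or better in the pooled list and 1120 or better in either replicate.

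The other IDR summits were weaker in all lists. That in lncRNA:iab8 had a pooled signal of 160 (rank 1556), with 98.8 in replicate 1 (rank 1597) and 59.5 in replicate 2 (rank 1720). That in the Ubx intron had 124 (rank 2313), with 72.2 in replicate 1 (rank 2646) and 53.9 in replicate 2 (rank 2023). The distal Abd-B summit had 119 (rank 2474), with 71.5 in replicate 1 (rank 2689) and 53.4 in replicate 2 (rank 2055). These are the strongest replicate summits within 200 bp, and the nearest replicate 1 summit was a weak one (18.3, rank 24625). The summit near Glut3, a sugar transporter gene, had 118 (rank 2520), with 62.8 in replicate 1 (rank 3318) and 56.7 in replicate 2 (rank 1856). The lowest signal in the IDR list was 101, and the strongest region summits below it had pooled signals of 93.2, 92.2 and 91.1, the first and the third in introns of lncRNA:iab8 and the second in an intron of lncRNA:bxd.

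Taking the 3260 strongest peaks of each replicate gave nearly the same sites. In replicate 2 they included all 7 IDR sites and 1 further summit in lncRNA:iab8 (chr3R:16886792-16887167), which ranked 2716 there and 6709 in replicate 1. In replicate 1 they included 6 of the 7, without the summit near Glut3, and 1 further summit in an intron of Ubx (chr3R:16704247-16704622), which ranked 3090 there and 11238 in replicate 2. The replicates share a control, and the IDR and pooled lists are built from both, so the lists are not independent of one another.

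Ubx, which specifies the posterior thorax and the anterior abdomen (FBgn0003944, chr3R:16656623-16734426, minus strand), held 15 pooled summits, 15 of replicate 1 and 18 of replicate 2. Of the 15 pooled summits, 6 had a summit of both replicates within 200 bp. The pooled signals ran from 24.0 to 124 with a median of 29.1. After the IDR summit, the strongest inside the gene was the intronic summit at chr3R:16704247-16704622, with a pooled signal of 85.3, 65.5 in replicate 1 and 20.4 in replicate 2. Next came an intronic summit at chr3R:16673177-16673552, with 64.0 in the pooled list, 36.3 in replicate 1 and 25.4 in replicate 2. The former was far stronger in replicate 1 by rank, and the latter ranked 8148 and 7500 in replicates 1 and 2. Within 2 kb beyond the 3′ end of Ubx lay 2 more of the 5 strongest, both near modSP, a serine protease gene. The summit at chr3R:16655767-16656142 had 61.7 in the pooled list and 59.7 in replicate 1 and no match in replicate 2. The summit at chr3R:16655226-16655601 had 58.4, with 20.2 in replicate 1 and 36.1 in replicate 2.

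The Ubx promoter carried the single pooled summit within 500 bp of a Hox TSS. It lay 212 bp downstream of the Ubx TSS in the 5′ UTR, with a pooled signal of 52.5 (rank 8948), 31.7 in replicate 1 (rank 10067) and 22.4 in replicate 2 (rank 9406). The annotation gives 1 TSS for Ubx, 3 for abd-A and 6 for Abd-B. None of these 10 had an IDR summit within 500 bp. Counted by gene, none of the 3 had an IDR summit there, against 13.6% of protein-coding genes. A pooled summit lay there in 1 of the 3 genes, against 55.1% of protein-coding genes. With 3 genes, these counts do not show a lack. At the 3 abd-A TSSs the nearest pooled summit lay 4817 to 6761 bp away, upstream. At the Abd-B TSSs it lay 1063 to 14484 bp away. Replicate 1 listed weak summits closer to the abd-A TSSs, though none within 500 bp. One lay 1203 bp downstream of the TSS at position 16828105 (signal 16.3, rank 29479). Another lay 2137 and 1840 bp upstream of those at 16829752 and 16830049 (16.6, rank 28647). In replicate 2 alone a summit (signal 21.8, rank 9891) lay 122 bp upstream of the Abd-B TSS at position 16960281, with no pooled or replicate 1 summit within 500 bp.

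abd-A, which specifies most of the abdomen (FBgn0000014, chr3R:16807214-16830049, minus strand), had the lowest strongest signal of the 3 genes, while its median pooled signal (30.0) was near that of Ubx (29.1). It held 4 pooled summits, 7 of replicate 1 and 3 of replicate 2, and 1 of the 4 was matched in both replicates. That summit (chr3R:16811714-16812089) had a pooled signal of 51.3 (rank 9265), with 36.5 in replicate 1 (rank 8097) and 12.1 in replicate 2 (rank 28898), near the end of the latter list. The others had pooled signals of 31.0, 29.1 and 26.7, with 27.5, 20.2 and 21.1 in replicate 1 and no match in replicate 2. A summit downstream of the gene within 2 kb (chr3R:16806239-16806614) had 36.3 in the pooled list and 30.9 in replicate 1, also with no match in replicate 2. The nearest IDR summit was the one in lncRNA:iab8, 7934 bp upstream of the outermost abd-A TSS.

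Abd-B, which specifies the posterior abdomen and genitalia (FBgn0000015, chr3R:16927212-16972236, minus strand), had the strongest single summit of the 3 genes. It had the fewest summits per length of the 3 in the full pooled and replicate lists. Pooled peaks with a deposited q-value of at most 0.05 numbered 3 in its 45.0 kb, 4 in the 77.8 kb of Ubx and 1 in the 22.8 kb of abd-A. Among those peaks Abd-B had the most per length of the 3. In the IDR list it had the most per length, at 4.44 per 100 kb from 2 summits, against 1.29 in Ubx and 0 in abd-A. It held 4 pooled summits, 6 of replicate 1 and 5 of replicate 2, and 3 of the 4 were matched in both. The proximal IDR summit lay 1970 bp downstream of the TSS at position 16960281, and the distal one 1482 bp upstream of the TSS at position 16968574, within introns of longer transcripts. The third matched summit (chr3R:16948538-16948913) had a pooled signal of 53.0, with 37.6 in replicate 1 and 14.6 in replicate 2. The fourth (chr3R:16970985-16971360) had 27.4 in the pooled list and 21.6 in replicate 1, without a match in replicate 2. A last summit within 2 kb of the gene (chr3R:16974039-16974414, pooled signal 24.3, rank 29015) was matched in neither replicate.

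By the strongest summit inside the gene in a replicate's own list, the order was Abd-B, Ubx, abd-A in both replicates. In replicate 1 these signals were 148, 72.2 and 36.5, and in replicate 2 they were 99.1, 53.9 and 12.4. With 2 replicates of 1 group the design allows no test of this order. An IDR summit lay inside 2 of the 3 genes, against 8.83% of all protein-coding genes, but the Hox genes are long. Among protein-coding genes of 0.5 to 2 times the member's length, 47.6% of 452 held one for Ubx, 32.9% of 1368 for abd-A and 40.7% of 794 for Abd-B, counted over all arms. Pooled summits inside the gene, which all 3 members had, occurred in 42.8% of protein-coding genes and in 85.0%, 83.6% and 84.8% of those of like length. For strongest pooled signal, genes of like length without a pooled summit were counted as weaker than the member. On that count Abd-B was above 85.8% of the genes of like length, Ubx above 59.1% and abd-A above 42.4%. Among only those genes of like length that held a pooled summit, the shares would be lower.

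The genes most like each member were taken as those with the smallest Euclidean distance in 3 measures: the log2 strongest signal in each of the 2 replicates and the log2 number of pooled summits plus 1, among genes of 0.5 to 2 times the member's length. For Ubx these were bnl (distance 0.149, strongest signals 77.5 and 55.9 in replicates 1 and 2, 14 pooled summits), Prosap (0.172) and Eip78C (0.190), out of 387 genes compared. For abd-A they were CG31038 (0.134), slif (0.289) and tok (0.292), out of 1130. For Abd-B they were Piezo (0.391), CG43373 (0.394) and Sox102F (0.430), out of 676.

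Between the Hox genes lay more summits than inside them. Per 100 kb of sequence, the pooled list held 19.3 summits in Ubx, 17.5 in abd-A and 8.88 in Abd-B, against 22.4 over all arms and 21.6 over arm 3R. The 72.8 kb between Ubx and abd-A held 35.7 per 100 kb (26 summits) and the 97.2 kb between abd-A and Abd-B 26.8 (26 summits). These counts include weak peaks. A deposited q-value of at most 0.05 was reached by 6 of the 26 between Ubx and abd-A and by 13 of the 26 between abd-A and Abd-B. Among those peaks the interval between abd-A and Abd-B was the denser. The 20 kb outside Ubx, which is dense in small genes, held 50 per 100 kb (10 summits) and the 20 kb outside Abd-B 35 (7 summits), none of them in the IDR list. In abd-A the replicates gave 30.7 and 13.1 per 100 kb, so its density was below or above the average of all arms depending on the replicate. In Abd-B both replicates lay below that average, at 13.3 and 11.1. The IDR list went the other way in Abd-B, with 4.44 per 100 kb (2 summits) against 2.435 over all arms.

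**Figure D2:**
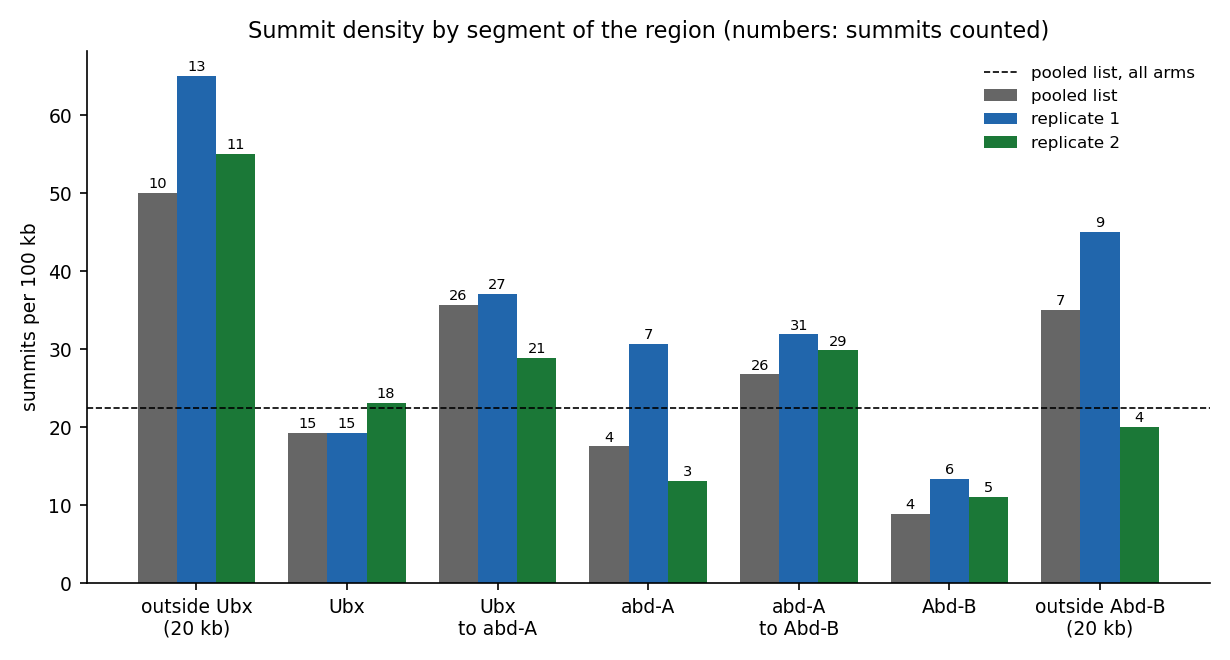
Summits per 100 kb (vertical axis, from 0) in each segment of the region in the pooled list and in replicates 1 and 2, with the number of summits above each bar and a dashed line at the pooled average over all arms. Abd-B is the lowest of the 7 segments in all 3 lists, and abd-A differs most between the replicates among the 3 Hox genes. Peaks of any q-value are counted.

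The noncoding genes between the Hox genes held most of these summits, but they also span most of that sequence. lncRNA:bxd covers 31065 of the 72787 bp between Ubx and abd-A, and lncRNA:iab8 covers 92116 of the 97162 bp between abd-A and Abd-B. Their counts are not allowed for length. lncRNA:bxd (chr3R:16742125-16773189) held 12 pooled summits, 5 of them matched in both replicates (2 neighbours shared the same replicate summits), and lncRNA:iab8 (chr3R:16831116-16923231), a precursor transcript of the abdominal domain that also gives rise to mir-iab-8, held 26, with 15 matched. MSAmiP, whose extent lies within that of lncRNA:iab8 except for 1 base, held 21 of the same summits. The antisense gene asRNA:PS4 inside Ubx held 2 and lncRNA:iab4 held 1, the latter matched in replicate 2 alone. Neither mir-iab-4 nor mir-iab-8, which are read from opposite strands of the same 68 bp, held a summit. At the start of lncRNA:bxd a summit lay 4 bp downstream of a TSS, with 36.7 in the pooled list (rank 15459), a match in replicate 1 and none in replicate 2.

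Pooled summits lay far apart in places. The longest stretch without a pooled summit ran for 35.3 kb from the 5′ part of lncRNA:iab8 to the middle of Abd-B (16913388 to 16948726), and 97 of 6926 gaps between neighbouring pooled summits on arm 3R (1.40%) were longer. Since it was picked as the longest of the region's gaps, that share does not measure how unusual it is. This stretch spans 2 of the 6 Abd-B TSSs, and replicate 1 listed 3 summits and replicate 2 listed 1 within it. A second stretch of 22.2 kb lay in Ubx (16673365 to 16695589), with 1 summit of replicate 1 and 4 of replicate 2. The median gap was 2715 bp in the region and 1523 bp on the arm. By density the region was not sparser, with 25.9 pooled summits per 100 kb against 21.6 on the arm. Since each list stops at its peak number 30000, a missing summit does not show that the site is free of Spps, and the share of the sequence to which reads could be mapped was not examined.

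Most summits of the region lay far from a TSS. Of the 92 pooled summits, 51 (55.4%, exact 95% interval 44.7 to 65.8, counting error over peaks only) were over 2 kb from any TSS, against 41.7% of all pooled summits. Within 500 bp of a TSS there were 21 (22.8%, 14.7 to 32.8), against 32.3% of all pooled summits, and 12 of these 21 were in the flanks outside Ubx and Abd-B. Of the 7 IDR summits, none was within 500 bp of a TSS, against 45.8% of all IDR summits, and 2 were over 2 kb away, against 32.5%. The other 5 lay 1345 to 1983 bp from a TSS, 3 of them nearest to a TSS of a noncoding gene. The 7 comprised 5 intronic and 2 intergenic summits. No test was made of these shares against the genome.

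Replicate agreement in the region was close to that of all peaks. Of the 92 pooled summits, 42 (45.7%, exact 95% interval 35.2 to 56.4) had a summit of both replicates within 200 bp, against 50.2% of all pooled summits. A further 32 were matched in replicate 1 alone, 11 in replicate 2 alone and 7 in neither. Counted without the pooled list, 44 of 108 replicate 1 summits (40.7%, 31.4 to 50.6) had a replicate 2 summit within 200 bp, against 49.9% of all, and 43 of 91 replicate 2 summits (47.3%, 36.7 to 58.0) had one of replicate 1, against 50% of all. Agreement followed rank. All 12 region summits among the 5000 strongest pooled peaks were matched in both replicates, as were 18 of 22 of the next 5000, 8 of 22 of the 10000 after those and 4 of 36 of the last 10000. Over all pooled peaks the shares in those ranges were 98.9%, 86.9%, 47.4% and 10.2%. A deposited q-value of at most 0.05 was reached by 34 of the 92 (37.0%, 27.1 to 47.7), against 34.7% of all pooled peaks, and 7 of the 92 (7.61%, 3.11 to 15.1) were IDR peaks, against 10.9%.

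Agreement varied along the complex. In Abd-B 3 of 4 pooled summits were matched in both replicates, between abd-A and Abd-B 15 of 26 (57.7%, 36.9 to 76.7), between Ubx and abd-A 11 of 26 (42.3%, 23.4 to 63.1), in Ubx 6 of 15 (40%, 16.3 to 67.7) and in abd-A 1 of 4. The exact intervals of these shares overlap, and the numbers in abd-A and Abd-B are too small to order the genes. Among the 42 summits matched in both, log2 signal correlated between replicates with Pearson r = 0.77 and Spearman rho = 0.63, and over all 15057 such pooled summits with r = 0.80 and rho = 0.68. These are descriptions across peaks that share 2 libraries and a control. The log2 ratio of replicate 1 to replicate 2 signal had a median of 0.48 in the region and 0.57 over all, on scales that differ between the lists, and ranged from 0.15 to 0.88 among the 7 IDR summits. With the nearest in place of the strongest replicate summit, the ratio of the distal Abd-B summit turned from 0.42 to -1.54.

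**Figure D3:**
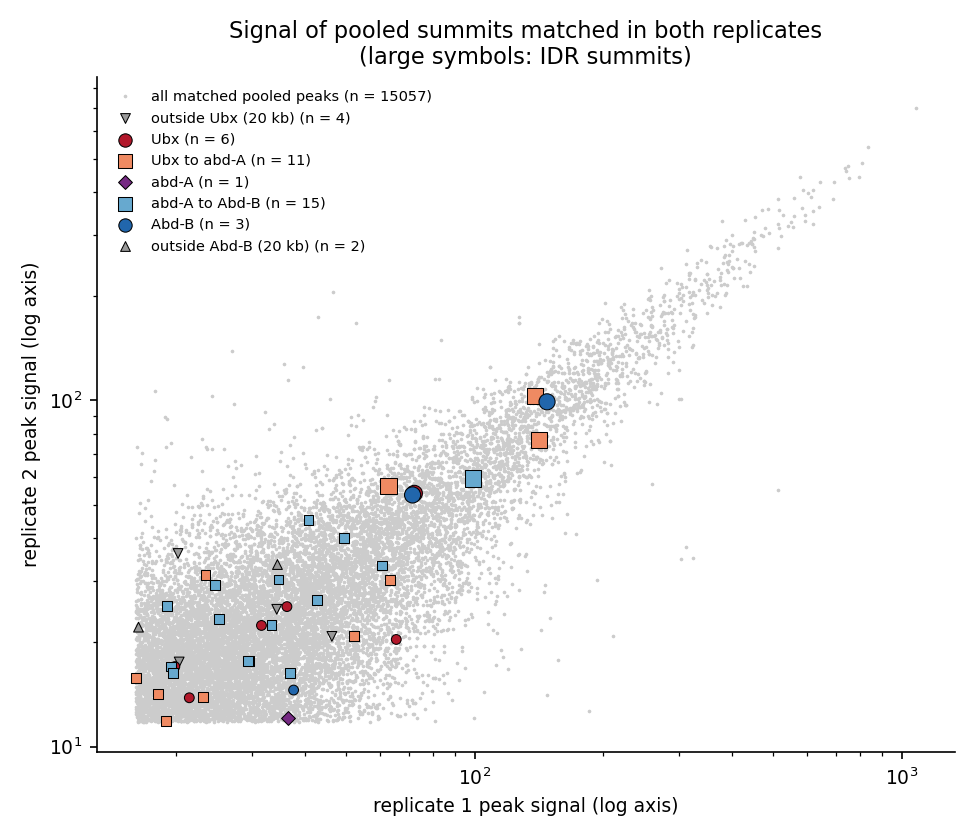
Replicate 1 signal (horizontal axis, log scale) against replicate 2 signal (vertical axis, log scale) of pooled summits matched in both replicates, in grey for all 15057 and in colour for the 42 of the region, by segment, with large symbols for the 7 IDR summits. The region's IDR summits lie along the grey cloud in its middle, well below its strongest peaks, and the symbol of the Ubx IDR summit is nearly hidden by that of the distal Abd-B summit.

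Motifs under the region's summits occurred at shares near those of all pooled summits. Within 100 bp of the 92 pooled summits, on both strands, the Sp core GGGCG occurred in 17.4% (exact 95% interval 10.3 to 26.7) against 18.4% of all pooled and 10.4% of all IDR windows. The KLF box GGGTG occurred in 19.6% (12.0 to 29.2) against 20.1% and 15.0%. The Pho core GCCAT, the commonest of the 11 motifs searched, occurred in 38.0% (28.1 to 48.8) against 31.2% and 24.0%. The GAGA site GAGAG stood at 25% against 22.9% and 21.2%, GTGTGT at 16.3% against 15.0% and 12.0%, and the Zeste site TGAGTG at 10.9% against 9.93% and 9.23%. The CTCF core AGGNGGC, Zelda site CAGGTA and BEAF-32 core CGATA stood at 5.44%, 5.44% and 25% against 6.72%, 4.33% and 24.8% of all pooled windows. The homeodomain site TAATTA stood at 9.78% against 13.9%, and TTTATG, a site of the Caudal and Abd-B class, at 23.9% against 21.8%. For all 11 motifs the region's interval included the share of all pooled windows.

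Among the 7 IDR windows, the GTGTGT repeat occurred in 4, the KLF box and the homeodomain site in 3 each, the GAGA site in 2, and the Sp core, Pho core and Zelda site in 1 each. The Zeste, CTCF, BEAF-32 and Caudal and Abd-B class motifs occurred in none of the 7. Over all IDR windows the homeodomain site stood at 19.1%, the Zelda site at 4.17%, the CTCF core at 4.23%, the BEAF-32 core at 25.9% and the Caudal and Abd-B class site at 24.8%, and the shares of the other 6 motifs are those given above. At 7 windows these shares have wide intervals, such as 18.4 to 90.1% for GTGTGT, whose share over all IDR windows was 12.0%. GTGTGT is the extreme of the 11 motifs, and the intervals of the others included their shares over all IDR windows. In the region's pooled windows GTGTGT stood at 16.3%, against 15.0% of all pooled windows. The region's IDR windows had a median GC content of 31.3%, against 32.8% over all IDR windows, 36.6% over the region's pooled windows and 41.7% over the sequence of the whole region. A match to these letters is not a shown binding site, and its absence says nothing of the factor.

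**Figure D4:**
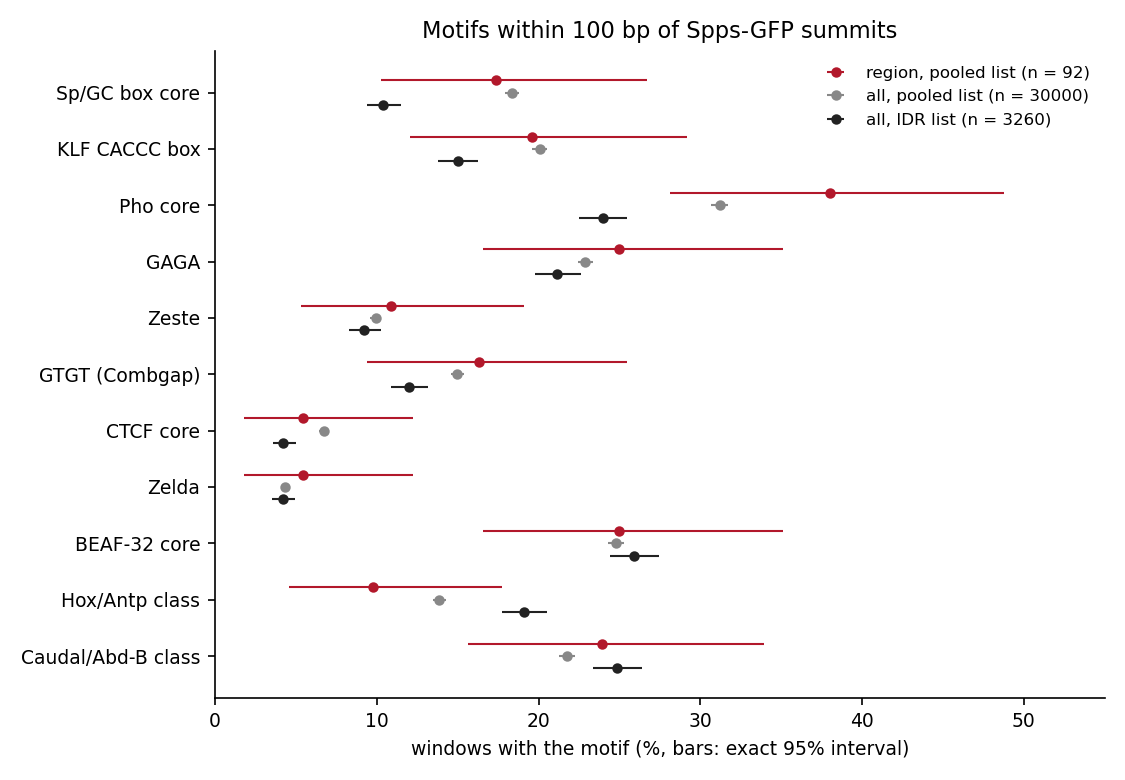
Share of summit windows (horizontal axis, percent, with exact 95% intervals) that hold each of 11 motifs within 100 bp of the summit, for the 92 pooled summits of the region, all 30000 pooled summits and all 3260 IDR summits. The region's intervals are wide and include the share of all pooled windows for 11 of 11 motifs.

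Set beside the Antennapedia complex, which holds the other Hox genes, the region had fewer IDR and more pooled summits. From 20 kb outside the outermost of lab, pb, Dfd, Scr and Antp to 20 kb outside the other end (377.8 kb) there were 11 IDR and 84 pooled summits, against 7 and 92 in 355.6 kb here. Matched in both replicates were 53.6% (42.4 to 64.5) there and 45.7% here, with intervals that overlap, and no test of the difference was made. Counting summits inside a gene or within 2 kb, lab (2) and Antp (4) held IDR summits out of the 5 genes there, against 26% of protein-coding genes with at least 1, and all 5 held pooled summits, as did 76.3% of protein-coding genes. Ubx held 1 and Abd-B 2 on the same count. Of the Hox cofactor genes, hth held 5 IDR summits and exd none. Gene length is not allowed for in these counts: hth spans 132008 bp and Antp 102976 bp, against 4042 bp for exd. Of 27 genes known to set or keep the expression of the complex, 14 held an IDR summit and 24 a pooled summit. Over all protein-coding genes these shares were 26% and 76.3%, and no test was made. The strongest summits of the 27 were at ash1 (signal 1283), a trithorax group methyltransferase gene, ph-p (1183) and Pc (1122), which encode Polycomb group proteins, and Trl (929), which encodes GAGA factor.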

How the data were processed

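Spps-GFP ChIP-seq peak lists of 2 biological replicates on dm6 were used, with chromatin sonicated to 200 to 800 bp per the labels. Per the listings deposited with the samples, the authors called each replicate's peaks on its own alignment, a pooled list on both, all against the same control, and derived the IDR list from these. The sources used here do not name the aligner, the caller, the thresholds or the filters. The deposited signal and −log10 q-value are the authors' values per peak. The lists hold no read counts, so depth is unknown and intervals (Clopper-Pearson, 95%) cover counting over peaks only. The samples are labelled as separate biological replicates.

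Summits were converted to 1-based positions. A match was a replicate summit within 200 bp of a pooled summit, and the strongest such summit gave the replicate's value, a choice made after the nearest had been tried. Transposable elements were left out of the Ensembl release 115 annotation (BDGP 6.54) that gave genes and TSSs, and RefSeq release 6 gave the sequence; the extents of Ubx, abd-A and Abd-B were the same in both. A promoter was 500 bp to either side of a TSS. Motifs were searched as strings within 100 bp of summits. No test compares samples, since there is 1 group. Matching and motif search were tested on simulated data. Intervals were computed with SciPy 1.17.1, tables with pandas 2.3.3 and NumPy 2.4.6, and figures with matplotlib 3.10.9, in Python 3.11.15. Alternatives were other flanks, windows, match distances and list lengths, and each replicate alone.

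The members, gene lists, motifs and alternatives were chosen with earlier results of these data known. Named genes were the 3 members with the 5 strongest pooled summits inside or within 2 kb of each, genes holding an IDR summit of the region, its noncoding genes, the 3 genes most like each member, and up to 4 genes of each list by strongest signal. Glut3, modSP, lncRNA:CR45750 and asRNA:PS4 were named after their values were seen.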

Additional observations from a re-analysis of the deposited data

How the results depend on the processing

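The IDR count of 7 was the same without flanks and stood at 8 with flanks of 50 kb. Among the 1000 strongest IDR peaks the region held 3 summits, 0 of them over 2 kb from a TSS, in place of 7 and 2, since that list is shorter. Leaving out a replicate gave 7 to 8 region summits among the 3260 strongest peaks of the other, of which 2 to 4 were over 2 kb from a TSS. That last count was 7 with a distance of 1 kb and 5 with TSSs of protein-coding genes alone. No IDR summit lay within 250, 500 or 1000 bp of a Hox TSS in the full lists or in the 3260 strongest peaks of either replicate alone (the latter at 500 bp), and pooled summits there numbered 1, or 1 to 2 in a single replicate's list. With the 10000 strongest pooled peaks the region held 34 summits, Ubx 4, abd-A 1 and Abd-B 3. Abd-B then had the most per length of the 3 genes, in place of the fewest. Leaving out a replicate gave 91 to 108 summits in the region, 15 to 18 in Ubx, 3 to 7 in abd-A and 5 to 6 in Abd-B. Matching in 1 replicate alone gave 57.6% to 80.4% in place of 45.7% in both, and match criteria gave 40.2% (100 bp) to 53.3% (500 bp). Among the 10000 strongest peaks of each list, 53.1% of 32 replicate 1 summits were matched, in place of 40.7%.

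The strongest replicate summit within 200 bp was taken as the match after the nearest had been tried and its values seen, so both this choice and its alternative were chosen after seeing the data. The nearest turned the log2 replicate 1 to replicate 2 ratio of the distal Abd-B summit from 0.42 to -1.54. A weak replicate 1 summit (signal 18.3, rank 24625) lay 82 bp from the pooled summit, closer than the strong one, and by nearest match no IDR summit of 3251 had a lower ratio. The region's median ratio was 0.48 either way. Motif shares changed with window size, beyond their intervals for 7 of 11 motifs at 50 bp and 9 of 11 at 200 bp, and for 0 of 11 among summits matched in both replicates. No paired analysis was possible because there is 1 group. What the lists leave out below their lowest peak limits every count of 0.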
